A study of Mus musculus with 42 samples.

Results

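The genes described here encode the mitochondrial respiratory chain and ATP synthase, with part of the complex I assembly machinery. They were chosen by name: protein-coding genes of the deposited table whose GENCODE M21 symbol begins with Nduf, Uqcr or Atp5, is Sdha, Sdhb, Sdhc or Sdhd, begins with Cox4 to Cox8, or begins with mt-. This gave 106 of the 49585 genes in the table, of which 93 are nuclear genes and 13 are the protein-coding genes of mitochondrial DNA. The nuclear genes are 7 core subunits of complex I, 31 further genes counted here with its accessory subunits, 8 complex I assembly factors, 4 subunits of complex II, 8 of complex III, 18 of complex IV and 17 of ATP synthase. The rule uses names only.

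The respiratory chain passes electrons from NADH and succinate to oxygen through complexes I to IV, and ATP synthase makes ATP from the proton gradient that complexes I, III and IV build. Nearly all subunits are encoded in the nucleus, made in the cytosol and imported, whereas a small set of core subunits of complexes I, III, IV and ATP synthase is read from mitochondrial DNA as long transcripts that are then cut into single messenger RNAs. Complex II is wholly nuclear. Organs differ in their demand for oxidative metabolism, with liver and intestinal epithelium known as rich in mitochondria and thymus made up largely of small lymphocytes with little cytoplasm.

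Total RNA was sequenced from 4 organs (pancreas, liver, intestine and thymus) of 4-week-old mice with 4 germline p53 genotypes, on a 50% BALB/C, 50% C57BL6 background. The genotypes are given as labelled: p53-null (Null), p53 +/- (Het), p53 AD/- (AD) and p53 RP/- (RP), so that Het, AD and RP mice each carry 1 allele besides the null allele. What the letters AD and RP stand for, the sex of the mice and the radiation dose are not given in the labels used here. Irradiated thymus, collected 4 h after exposure, came from 4 Null, 4 Het, 4 AD and 4 RP mice. The unirradiated, here called basal, thymus groups hold 3 Het, 3 AD and 2 Null mice. For each other organ 3 Null and 3 AD mice were sampled, all basal, and basal RP mice and irradiated organs other than thymus are not analysed here. The 42 libraries came from 25 animals; libraries are named below by genotype and mouse number, for example Het-595. Irradiated and basal thymus came from different mice, so irradiation cannot be told apart from the set of mice. Within an organ, p-values measure the spread among these mice.

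Each library held between 19861977 counts, in pancreas, and 34772519, in intestine. The marker genes of each organ were present: thymocyte markers summed to 6602 to 9925 CPM (counts relative to the scaled library total) in thymus, hepatocyte markers to 107737 to 137519 CPM in liver and pancreatic acinar markers to 212940 to 293999 CPM in pancreas. Acinar markers also summed to 431 to 57575 CPM in the intestine libraries, highest in AD-702 and Null-923. The 6 p53 target genes used as a check of the labels were all higher in irradiated Het than Null thymus (median log2 fold change 2.89), and none of them was called in AD or RP against Null. Trp53 itself was at 19.5 to 20.8 CPM in irradiated Null thymus and at 29.8 to 39.5 CPM over the other 3 irradiated groups.

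Sequence matters for which of the 13 mt- genes can be read from short-read counts, because mouse chromosome 1 carries a nuclear insertion of mitochondrial DNA. In GRCm38 this insertion spans chr1:24611535-24616197, with 7 annotated unprocessed pseudogenes on the minus strand. The copies of mt-Co2 (Gm28661), mt-Co3 (Gm28437), mt-Atp6 (Gm10925), mt-Nd4l (Gm10222) and the first 876 bases of mt-Nd4 (Gm28439) showed 0 differing bases over their whole length. The copy of mt-Nd3 differed at 1 of 345 bases and that of mt-Co1, which starts at base 1054 of the gene, at 6 of 492. The first 60 bases of these last pairs are shown, read 5′ to 3′ along the gene, with the differing bases in capitals, since they are the bases that tell a mitochondrial read from a nuclear one:
mt-Nd3, bases 1 to 60: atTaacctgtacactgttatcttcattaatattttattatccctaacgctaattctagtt
Gm28438, bases 1 to 60: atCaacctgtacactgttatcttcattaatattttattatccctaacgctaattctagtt
mt-Co1, bases 1054 to 1113: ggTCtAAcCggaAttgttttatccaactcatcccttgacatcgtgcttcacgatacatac
Gm29216, bases 1 to 60: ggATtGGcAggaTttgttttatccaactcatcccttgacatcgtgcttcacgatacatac
Of all 50-base words in each gene, 99.5% of mt-Co2, 99.9% of mt-Co3, 99.5% of mt-Atp6, 98.0% of mt-Nd3, 98.8% of mt-Nd4l, 62.2% of mt-Nd4 and 28.7% of mt-Co1 also occur in the insertion. For mt-Cytb, mt-Nd1, mt-Nd6 and mt-Atp8 the share in any other annotated transcript was 0%, and it was 8.2% for mt-Nd2 and 7.6% for mt-Nd5, none of it in the insertion. For mt-Co1 the share in any other annotated transcript was 51.1%. The search covered annotated transcripts only, so a copy below means an annotated one. Between the copies of mt-Atp6 and mt-Co2, from 24614651 to 24614885, the insertion holds bases without an annotated copy. mt-Atp8 overlaps mt-Atp6, and a copy of mt-Atp8 in these bases was not searched for.

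Levels of the mt- genes followed this split only in part. In basal thymus (mean of 5 libraries, CPM per kb of transcript) mt-Co1, a catalytic subunit of complex IV, stood at 1510 ± 66 (SD, n = 5), mt-Nd1 at 239 ± 21.6 and mt-Cytb, the complex III subunit, at 199 ± 19.6. Levels per kb here are on the scale fitted over all 4 organs and cannot be set against the CPM of irradiated thymus given below. As a plain share, mt-Co1 made up 0.443 to 0.494% of counts in these 5 libraries. The genes with near-complete copies were far lower, with mt-Co3 at 11.1 ± 1.82, mt-Co2 at 5.05 ± 1.1, mt-Nd3 at 1.32 ± 0.805 and mt-Atp6 at 1.08 ± 0.304 CPM per kb. Annotated copies did not mark every low gene: mt-Nd6 was at 6.81 ± 1.3 CPM per kb with no word in another annotated transcript. mt-Atp8, at 0.843 ± 0.233 CPM per kb, also had none, but an unannotated copy of it was not searched for. mt-Nd4, with a partial copy, was at 21.9 ± 4.19 CPM per kb, and mt-Nd5, with none in the insertion, at 17.3 ± 3.47. mt-Atp8 held 278 counts in all, in 34 of 42 libraries, and mt-Nd4l 126 counts in 37. How much of the low levels comes from reads that could not be placed was not tested, since the counting rules are not given in the sources used here. The counts of the insertion's own genes made up 0.00112 to 0.00941% of each library, and mt-Co1 alone made up 57.4 to 86.8% of all mt- counts, so that summed mt- counts below are mainly mt-Co1.

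**Figure D1:**
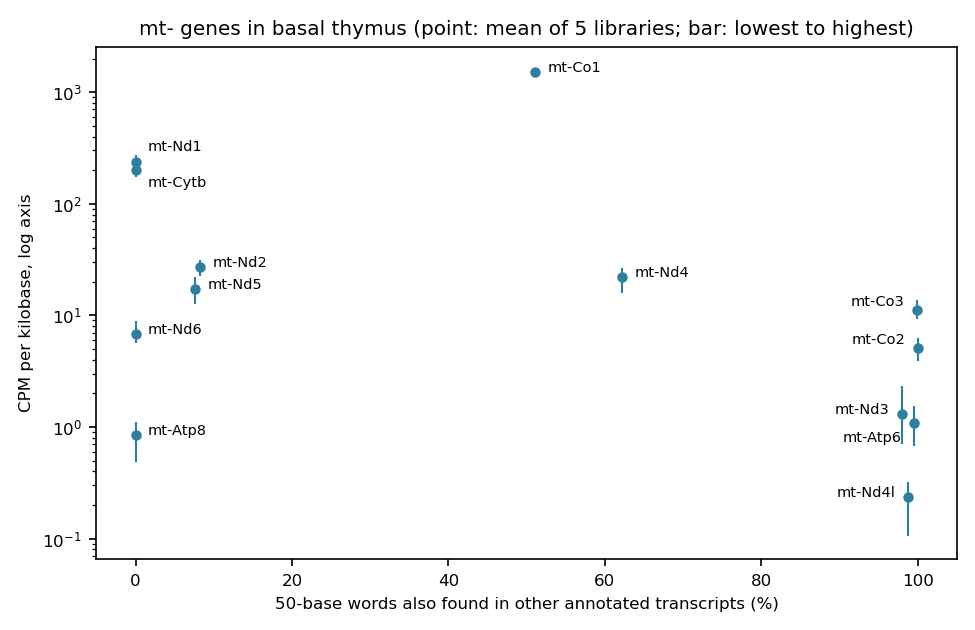
Level of each mt- gene in basal thymus (vertical log axis, CPM per kb; point, mean of 5 libraries; bar, lowest to highest) against the percentage of its 50-base words found in other annotated transcripts (horizontal axis). Levels are on the scale fitted over all 4 organs. The genes with 98.0% or more sit at or under 11.1 CPM per kb, whereas mt-Nd1 and mt-Cytb, with 0%, sit at 239 and 199, and mt-Atp8, also with 0%, sits at 0.843.

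Promoters of the nuclear genes are shown for 3 members that later results turn on: Ndufaf4, an assembly factor of complex I, and Sdhb, the iron-sulphur subunit of complex II, which were lower in irradiated Het thymus, and Cox6b2, which was higher. The windows are RefSeq's (GRCm38.p6), 250 bases before to 50 after the annotated start, 5′ to 3′ along the gene, with motif matches in capitals. A RefSeq window was matched for 76 of the 93 nuclear members and for 16798 protein-coding genes in all. Exact letters were searched on both strands: GCGCATGC for NRF1, CCGGAAG for the ETS factor GABP and AAGATGGC for YY1, which are known regulators of nuclear respiratory genes.
Ndufaf4, chr4:24897833-24898132, plus strand: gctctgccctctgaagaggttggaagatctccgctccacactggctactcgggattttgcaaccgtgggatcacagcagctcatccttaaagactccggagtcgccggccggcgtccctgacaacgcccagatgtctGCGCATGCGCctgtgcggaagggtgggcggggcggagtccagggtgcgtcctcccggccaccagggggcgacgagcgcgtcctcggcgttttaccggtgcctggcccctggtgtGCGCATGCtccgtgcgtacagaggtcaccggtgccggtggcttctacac
Sdhb, chr4:140961021-140961320, plus strand: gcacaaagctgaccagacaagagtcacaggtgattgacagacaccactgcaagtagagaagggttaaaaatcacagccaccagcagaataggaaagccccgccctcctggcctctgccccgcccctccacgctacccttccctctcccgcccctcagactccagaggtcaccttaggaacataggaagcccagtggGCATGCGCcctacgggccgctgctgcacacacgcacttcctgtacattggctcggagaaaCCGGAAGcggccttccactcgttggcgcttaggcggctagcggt
Cox6b2, chr7:4753045-4753344, minus strand: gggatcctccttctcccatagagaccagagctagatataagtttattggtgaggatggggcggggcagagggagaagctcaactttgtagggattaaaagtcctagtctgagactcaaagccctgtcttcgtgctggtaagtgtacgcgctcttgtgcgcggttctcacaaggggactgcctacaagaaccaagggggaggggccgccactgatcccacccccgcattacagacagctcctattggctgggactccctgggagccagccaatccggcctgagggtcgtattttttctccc
The Ndufaf4 window held 3 NRF1 matches, a pair on opposite strands that overlap and begin 113 and 111 bases before the start, and a forward one 2 bases after it. The Sdhb window held a reverse NRF1 match 54 bases before the start and a forward ETS match 7 bases after it. No match lay in the Cox6b2 window, which says only that these letters are not there. The windows of Cox7b, Ndufaf2 and Atp5b, which were also lower in irradiated Het thymus and are not shown, held no match either. Over all windows, the NRF1 letters were present in 15.8% of nuclear members and 4.1% of protein-coding genes, the ETS letters in 23.7% and 13.2%, and the YY1 letters in 14.5% and 3.61%. Any of the 3 was present in 44.7% of members against 19.1% of protein-coding genes, and in 55.1% of 69 mitochondrial ribosome genes. By role, the share with any of the 3 ran from 23.1% of 13 complex IV genes to 66.7% of 3 complex II genes. Among members with a window, 50% of the 30 that were lower in irradiated Het than Null thymus and 43.2% of the 44 that were not called held any of the 3.

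Irradiated thymus was compared between Het and Null mice first. With 1 wild-type allele present, a broad set of nuclear respiratory genes stood slightly lower 4 h after irradiation, complex I assembly factors and ATP synthase subunits most often, while 1 complex IV isoform gene, Cox6b2, stood 9.95-fold higher. Of 93 nuclear members, 91 passed the filter on low counts and 38 were called (edgeR quasi-likelihood test, Benjamini-Hochberg adjusted p below 0.05 over all genes), 1 higher and 37 lower. Of all 22206 genes tested in this comparison, 19.2% were called, 9.79% higher and 9.39% lower. The log2 fold change was below 0 for 83 of the 91 nuclear members, with a median of -0.21 against -0.0055 over all genes. Of the 12 mt- genes tested, 1 was called, higher, and their median was 0.089. Leaving out Het-595 reduced the nuclear calls to 18, and a fit of the Het and Null libraries alone gave 12.

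Cox6b2 encodes an isoform of complex IV subunit 6B that is known mainly from testis. It lies at chr7:4751792-4753094 on the minus strand of GRCm38. The irradiated Het libraries held 33.6, 39.3, 34 and 42.5 CPM, against 3.47, 3.21, 4.21 and 4.11 in Null, 3.75, 4.41, 4.34 and 4.73 in AD, and 3.62, 3.59, 4.41 and 3.33 in RP. Basal thymus libraries of all 3 genotypes ranged from 2.02 to 4.22 CPM. Every irradiated Het library thus lay above every other thymus library, with no overlap. The log2 fold change from Null to Het was 3.31 ± 0.12 (SE; edgeR adjusted p = 1.35e-12), a 9.95-fold difference resting on 970 to 1139 counts in Het and 97 to 140 in Null. The gene nearest to it, Fam71e2, 132 bases away, held 7 to 14 counts in Het and 0 to 3 in Null, and Kmt5c, 4278 bases away, held 1097 to 1186 in Het and 1097 to 1259 in Null. Cox6b1, the ordinary isoform, was not called.

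Assembly factors of complex I had the largest share of lower members, 6 of 8, with a median log2 fold change of -0.36. Ndufaf6, needed at an early step of assembly, was at 2.67, 2.83, 3.1 and 3.28 CPM in irradiated Het and at 6, 9.11, 4.81 and 5.96 in Null. AD libraries held 6.03, 4.83, 5 and 4.85 CPM and RP libraries 5.05, 5.13, 5.34 and 5.51, so all 4 Het libraries lay below all other irradiated ones. The Het against Null log2 fold change was -1.12 ± 0.16 (edgeR adjusted p = 9.77e-05). Ndufaf4, which acts with Ndufaf3 in assembly, was at 10.4, 7.7, 8.79 and 7.49 CPM in Het and at 14.3, 19.7, 16.9 and 17.4 in Null (-0.99 ± 0.12, edgeR adjusted p = 1.02e-05). AD libraries lay between them at 12.2, 11.3, 12.3 and 13.5 CPM, and RP libraries at 13.2, 14.8, 13.1 and 15.6. Ndufaf2, a relative of the subunit Ndufa12 that helps a late assembly step, was at 6.28, 4.37, 7.08 and 4.96 CPM in Het and 7.51, 9.61, 8.15 and 7.06 in Null, groups that touch (-0.51 ± 0.14, edgeR adjusted p = 0.0187). Ndufaf1 and Ndufaf7 (both -0.36) and Ndufaf5 (-0.30) were the other lower assembly factors. The calls of Ndufaf6 and Ndufaf4 held in each of the 13 alternative fits, whereas that of Ndufaf2 was lost without Null-604 and without Het-595. Without strand information, reads of Ndufaf2 and of Smim15, which overlap on opposite strands, cannot be told apart.

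Structural subunits of complex I moved less. Of 7 core subunits, 2 fell, Ndufv2 (-0.34 ± 0.076) and Ndufs3 (-0.31), and all 7 had a log2 fold change below 0, from -0.34 to -0.11. Of the 31 genes counted with accessory subunits, 9 fell, led by Ndufa12 (-0.41), Ndufb4 (-0.37), Ndufb9 and Ndufs6 (both -0.36) and Ndufa4 (-0.34), which is now assigned to complex IV. The calls of Ndufa12 and Ndufb4 were the least stable, lost in 8 and 9 of 13 alternative fits, among them those without Null-604, Null-856, Het-594, Het-595 or Het-603.

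Complex II had 2 of 4 subunits lower. Sdhb was at 97.3, 75.7, 89.6 and 84.4 CPM in Het and at 95.6, 147, 122 and 111 in Null, so that 1 Het library overlapped Null (-0.46 ± 0.10, edgeR adjusted p = 0.00494), and Sdhd, a membrane anchor of the complex, fell by 0.32 on the log2 scale. Of 8 complex III subunits, Uqcrb (-0.33) and the core protein Uqcrc2 (-0.26) fell. The Null library Null-604 was the highest of the 16 irradiated libraries for Sdhb, Atp5b, Cox7b and Ndufaf6; without it the nuclear calls numbered 28.

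Besides Cox6b2, complex IV had 4 of 16 tested members lower. Cox7b, a small subunit, was at 72.8, 56.9, 69.6 and 66.2 CPM in Het and at 82.8, 130, 96.7 and 92 in Null, with AD at 75.3 to 92.3 and RP at 75.7 to 95.4, so that all Het libraries were the lowest (-0.60 ± 0.12, edgeR adjusted p = 0.00189). Cox7a2 held 81.4, 69.5, 78 and 74 CPM in Het and 91.1, 101, 99.3 and 100 in Null (-0.37, edgeR adjusted p = 0.00104), again without overlap. Cox6c (-0.39) and Cox5a (-0.27) were the others, and Cox6c overlaps Vps13b on the opposite strand.

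ATP synthase had 12 of 17 subunits lower, with a median log2 fold change of -0.30 and no member above 0. Atp5b, the catalytic beta subunit, was at 720, 616, 685 and 619 CPM in Het and at 764, 1102, 905 and 861 in Null, with AD at 722 to 925 and RP at 834 to 904, so all 4 Het libraries were again the lowest (-0.46 ± 0.10, edgeR adjusted p = 0.0023). The remaining lower subunits ranged from -0.42 for Atp5g2, a gene of the rotor c subunit, to -0.25 for Atp5a1, the alpha subunit. The Atp5g2 call was lost in 7 of 13 alternative fits, among them those without Null-604, Null-857, Het-595, Het-603 or Het-631.

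**Figure D2:**
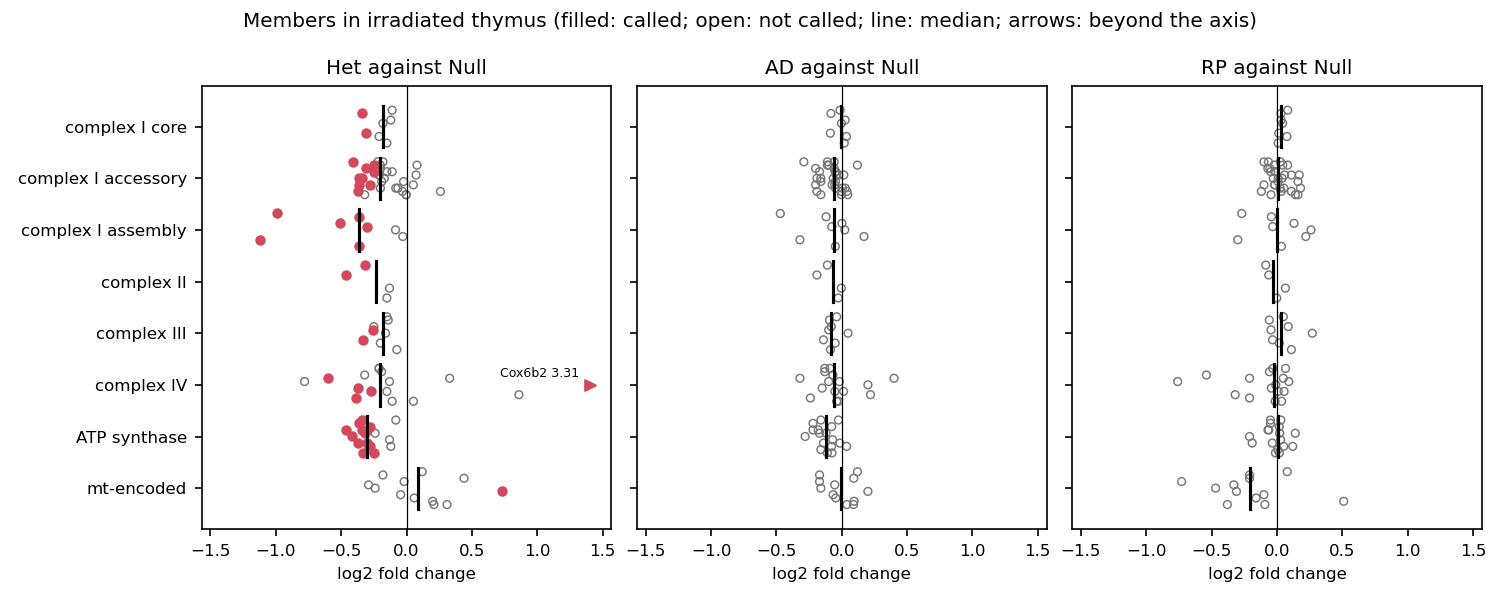
Log2 fold change of every tested member in irradiated thymus by role, for Het, AD and RP against Null (horizontal axis, log2; filled points passed the edgeR threshold, open points did not; line, median of the role). In Het the filled points lie below 0 in every nuclear role except for Cox6b2 (3.31, drawn as an arrow beyond the axis), and in AD and RP no point is filled.

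The mt- genes of the same libraries did not share the lower values. mt-Co1 was at 4762, 3970, 4818 and 4754 CPM in Het and at 4352, 4809, 5014 and 4718 in Null (log2 fold change -0.045 ± 0.079, edgeR adjusted p = 0.751). The 12 tested genes ran from -0.29 for mt-Co3 to 0.73 for mt-Nd5, and 5 of 12 were below 0. mt-Nd5, a proton-pumping subunit of complex I, was the only one called in the direction of Het, at 115, 63.1, 101 and 170 CPM against 70.6, 71, 63.3 and 65.5 in Null (0.73 ± 0.22, edgeR adjusted p = 0.0317). Het-595, at 63.1 CPM, lay below all Null libraries, and the call was lost when Het-594, Het-631 or any 1 of the 4 Null libraries was left out. mt-Nd4 in Het was at 65.8, 61.2, 70.8 and 136 CPM, the last being Het-631, against 59.3 to 66.1 in Null, and was not called (0.44 ± 0.20, edgeR adjusted p = 0.145). Het-631 also held the highest sum of striated muscle markers of the irradiated thymus libraries (596 CPM, others 127 to 237). Its part in the mt- values was not tested; without it no mt- gene was higher and 2 were lower. mt-Nd5 and mt-Nd6 overlap on opposite strands.

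In AD and RP thymus the nuclear genes stood at or near the Null level. Against Null, edgeR called 0 of 91 nuclear and 0 of 12 mt- members in AD, where 0.027% of all genes were called, and likewise 0 and 0 in RP, where 0.0315% were. At an unadjusted p below 0.05, 9 nuclear and 0 mt- members passed in AD and 4 nuclear and 2 mt- members in RP, and DESeq2 called 1 nuclear member, lower, in AD and 0 in RP, with 0 mt- members in both. The median log2 fold change of nuclear members was -0.074 in AD, with 73 of 91 below 0, and 0.0088 in RP, with 42 of 91 below 0. Ndufaf4 was lowest in AD (-0.47 ± 0.12, edgeR adjusted p = 0.263). For the mt- genes the medians were -0.0035 in AD and -0.21 in RP, where 10 of 12 were below 0, mt-Nd2 at -0.47 and mt-Nd1 at -0.21 among them. These comparisons share the 4 Null libraries with that of Het, and are therefore given side by side.

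AD and RP were also set against Het directly, and both comparisons use the same 4 Het libraries. In AD against Het, 9 nuclear members were called, 8 higher and Cox6b2 lower (-3.11 ± 0.12, edgeR adjusted p = 2.73e-12), where 14% of all genes were called, 5.69% higher and 8.26% lower. They included 4 of 8 assembly factors, Ndufaf6 (0.80 ± 0.17), Ndufaf4 (0.52 ± 0.12), Ndufaf2 (0.51 ± 0.14) and Ndufaf1 (0.31), together with Atp5l (0.36), Ndufv2 (0.26), Ndufs3 and Cox7a2 (both 0.22). Without AD-630 there were 3 nuclear calls, and without Het-595, Het-603 or AD-727 there were 4. In RP against Het, 32 nuclear members were called, 31 higher and Cox6b2 lower (-3.32 ± 0.12, edgeR adjusted p = 1.17e-12), where 18.8% of all genes were called, 8.53% higher and 10.2% lower. They included 11 of 17 ATP synthase subunits, 5 of 8 assembly factors, 3 of 7 core and 6 of 31 accessory genes of complex I, 1 of 4 in complex II, 1 of 8 in complex III and 4 higher members of complex IV. Ndufaf6 (0.82 ± 0.17), Ndufaf4 (0.71 ± 0.12), Ndufaf2 (0.63 ± 0.14), Atp5b (0.40 ± 0.10) and Sdhb (0.39 ± 0.10) led them. The count fell to 15 without Het-595, 17 without RP-649, 18 without RP-656 and 20 without RP-654.

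The mt- genes went the other way in RP. Of 12, 3 were called lower in RP than Het: mt-Nd5 (-1.04 ± 0.22, edgeR adjusted p = 0.00462), mt-Nd4 (-0.65 ± 0.20, edgeR adjusted p = 0.0326) and mt-Nd6 (-0.69 ± 0.23, edgeR adjusted p = 0.0433). RP libraries held 50.1, 51, 55.9 and 61.7 CPM of mt-Nd5, all below the lowest Het library at 63.1. The call of mt-Nd5 held in all 13 alternatives; 1 of the 3 calls was left without RP-649 or without RP-653. In AD against Het edgeR called 0 of 12 mt- genes, with 1 at an unadjusted p below 0.05 and 0 called by DESeq2. Between AD and RP, where edgeR called 0% of all genes, edgeR and DESeq2 called 0 nuclear and 0 mt- members, with 2 nuclear and 1 mt- member at an unadjusted p below 0.05. The AD minus RP log2 values were below 0 for 80 of 91 nuclear members (median -0.095) and above 0 for 11 of 12 mt- genes (median 0.21).

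**Figure D3:**
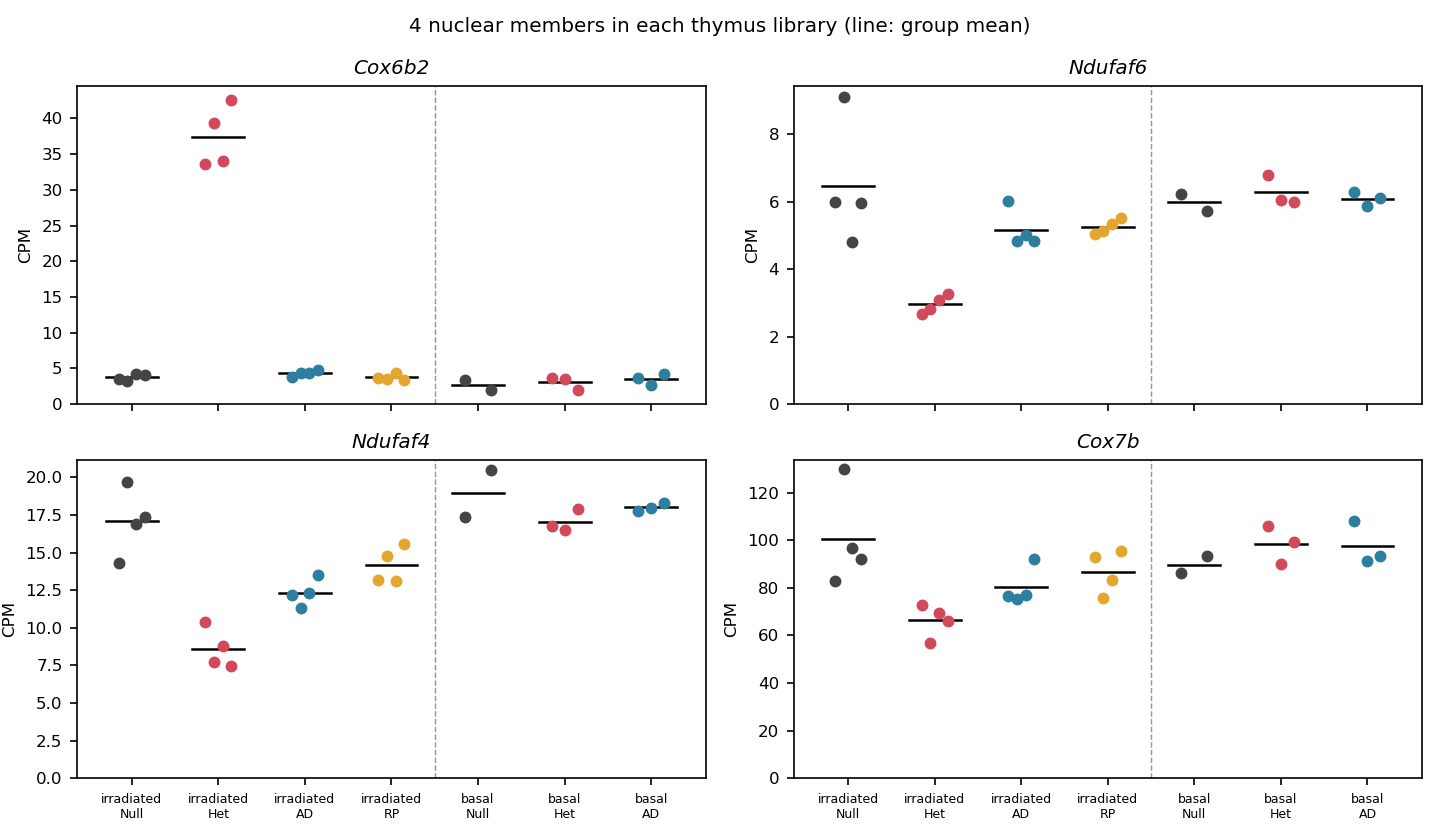
CPM of Cox6b2, Ndufaf6, Ndufaf4 and Cox7b in every thymus library (vertical axes from 0; points, libraries; line, group mean; dashed line between irradiated and basal groups). The irradiated Het points stand apart from the other 6 groups, from 33.6 to 42.5 CPM for Cox6b2 and from 2.67 to 3.28 for Ndufaf6.

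Irradiated and basal thymus were then compared within genotype, in a fit of all 24 thymus libraries. In Het mice 42 nuclear members were called, Cox6b2 higher (3.59 ± 0.20, edgeR adjusted p = 1.09e-12) and 41 lower, where 16.8% of all genes were called, 8.74% higher and 8.09% lower. The nuclear median was -0.27 with 86 of 91 below 0. Lower members made up 12 of 17 ATP synthase subunits, 8 of 16 in complex IV, 5 of 8 in complex III and 4 of 8 assembly factors. Ndufaf6 (-1.08 ± 0.16), Ndufaf4 (-0.99 ± 0.11), Ndufaf2 and Cox7b (both -0.57), the complex I core subunit Ndufs8 (-0.49), Atp5b and Ndufa4 (both -0.48) were the lowest. The count was 24 without the basal library Het-703 and 26 without Het-855. This comparison shares the irradiated Het libraries with the one against Null.

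In Null mice edgeR called 0 of 91 nuclear members, where 0.131% of all genes were called, with 2 at an unadjusted p below 0.05, 0 by DESeq2 and a median of 0.029. In AD mice, where 0.546% of all genes were called (0.165% higher, 0.381% lower), 1 nuclear member was, Ndufaf4 (-0.55 ± 0.11, edgeR adjusted p = 0.0176), from 17.8, 18 and 18.3 CPM in basal libraries to 11.3 to 13.5 after irradiation, without overlap. That call was lost when any 1 of the 3 basal libraries, or AD-630, AD-633 or AD-726, was left out. The AD median was -0.15, with 82 of 91 nuclear members below 0 and 27 at an unadjusted p below 0.05. edgeR called 0 mt- genes in each genotype, with 0 at an unadjusted p below 0.05 in Null and 3 in Het; DESeq2 called 2 in Het and 0 in Null and AD.

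The difference between these responses was itself tested. The response of Het differed from that of Null for 8 nuclear members, where 3.44% of all genes were called, 2.37% higher and 1.07% lower. They were Cox6b2 (difference in log2 fold change 3.12 ± 0.29, edgeR adjusted p = 4.88e-08), Ndufaf6 (-1.19 ± 0.24, edgeR adjusted p = 0.00335), Ndufaf4 (-0.84 ± 0.17, edgeR adjusted p = 0.0044), Cox7b (-0.73), Ndufa4 and Atp5j2 (both -0.49), Ndufs6 (-0.45) and Ndufa9 (-0.42). Over the 91 nuclear members the median difference was -0.31. With 2 basal Null libraries the count was unsteady, from 2 without the basal library Null-859 and 4 without Null-923 to 17 without the irradiated library Null-593. It was 3 without the irradiated library Het-595 or the basal library Het-703, and 13 without Het-594. Against AD the response of Het differed for 2 members, Cox6b2 (3.30 ± 0.27, edgeR adjusted p = 3.51e-09) and Ndufaf6 (-0.85 ± 0.22, edgeR adjusted p = 0.0277), where 3.98% of all genes were called, 2.94% higher and 1.04% lower. The Ndufaf6 call of that test was lost when Het-594, Het-595, AD-630 or 1 of the basal libraries Het-703, AD-700 and AD-701 was left out. edgeR called 0 mt- genes in either test, with 3 and 1 at an unadjusted p below 0.05 and 0 by DESeq2.

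Before irradiation no member differed between thymus genotypes by the adjusted test. edgeR called 0 of 91 nuclear and 0 of 12 mt- members in Het against Null and in AD against Null, where 0.0676% of all genes were called in each, and in AD against Het, where 0% were. At an unadjusted p below 0.05 there were 3, 9 and 2 nuclear and 2, 1 and 1 mt- members in these comparisons, and DESeq2 called 1 mt- member in Het against Null and no other. All 12 mt- values were above 0 in Het against Null (median 0.35, mt-Co2 highest at 0.69 ± 0.16, edgeR adjusted p = 0.207), and all 12 were below 0 in AD against Het (median -0.10). The Null group has 2 mice here. The 8 striated muscle and 8 adipocyte markers were above 0 as medians in Het against Null (3.33 and 1.42), with 0 called. Muscle marker sums were 152 and 175 CPM in Null and 248, 994 and 236 in Het-703, Het-697 and Het-855, and adipocyte sums were 162 and 137 CPM in Null and 444, 180 and 584 in Het. The mt- share of counts was 0.679% in Het-703, 0.525% in Het-697 and 0.678% in Het-855, against 0.555 and 0.543% in Null. The part of these tissues in the mt- values was not tested.

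A pair of complex IV isoform genes known from fat and muscle varied widely among thymus libraries of the same group. Cox8b, an isoform known from heart, muscle and brown fat, ranged from 1.33 CPM in Het-595 to 26 in Null-856, and Cox7a1, the heart and muscle form of subunit 7A, from 1.71 to 14.5 in the same libraries. The sum of 6 brown adipocyte markers ranged from 16.1 CPM in Het-595 to 233 in Null-856 and that of Ucp1, the uncoupling protein of brown fat, from 7.23 to 162. In irradiated Het the lowest was again Het-595, with Het-631 at 146 CPM for the brown adipocyte sum and 17.4 for Cox8b. None of the 6 markers passed in irradiated Het against Null (median log2 fold change -0.53). The part of adherent fat in any member's values was not tested.

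The other genes of the pathway were taken from lists of mitochondrial function. In irradiated Het against Null thymus, 46 of 77 mitochondrial ribosome genes were called lower and 0 higher (median log2 fold change -0.26), Mrps36 (-0.65), Mrpl42 and Mrpl12 (both -0.61) among them. Over all genes tested there, 9.39% were called lower. Of 17 genes of mitochondrial DNA upkeep and transcription 8 were lower, such as the RNA-binding protein gene Lrpprc (-0.58 ± 0.067, edgeR adjusted p = 6.66e-06), the exonuclease gene Mgme1 (-0.55), the helicase gene Twnk (-0.38) and Tfam (-0.26), which packages mitochondrial DNA. Of 13 citrate cycle genes 6 were lower (Fh1 -0.55, Idh3a -0.49, Cs -0.35), and of 12 genes for cytochrome c and complex IV assembly 3 were (Cycs -0.58, Sco1 -0.35). Assembly factors of complexes II, III and ATP synthase had 3 of 13 lower (Uqcc2 -0.48). Among 9 nuclear regulators of these genes, Myc (-1.27 ± 0.17, edgeR adjusted p = 8.02e-05), Pprc1 (-0.47) and Gabpa (-0.19) fell and Gabpb1 rose (0.27), while Nrf1 was not called (-0.16, edgeR adjusted p = 0.0606). No gene of these lists passed in AD or in RP against Null. In RP against Het, 50 of 77 mitochondrial ribosome genes and 8 of 17 genes of DNA upkeep and transcription were higher, and in AD against Het 21 and 5. Over all genes 8.53% were higher in RP against Het and 5.69% in AD against Het. Thymocyte markers, with 2 of 8 called, both higher, had a median of -0.0015 in Het against Null. In whole tissue, fewer cells of a type and less RNA per cell cannot be told apart.

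Nuclear and mt- genes were compared with each other as summed shares of each library. Nuclear members made up 0.688 to 0.823% of counts in irradiated Null thymus (mean 0.77), 0.589 to 0.665% in Het (mean 0.632), 0.671 to 0.791% in AD and 0.721 to 0.779% in RP, so Het and Null did not overlap. The mt- genes made up 0.566 to 0.646%, 0.492 to 0.643%, 0.559 to 0.614% and 0.503 to 0.589%, with overlap between Het and Null. The log2 ratio of mt- to nuclear counts was -0.22, -0.26, -0.15 and 0.052 in Het and -0.28, -0.46, -0.32 and -0.34 in Null, a difference of 0.20 between means with no overlap. The 2-sided exact permutation p was 0.0286, the smallest that 4 against 4 libraries allow, and 0.143 after adjustment over 15 comparisons between groups. RP lay at -0.50, -0.52, -0.45 and -0.40, below all Het libraries (difference -0.32, exact p = 0.0286, adjusted 0.143) and below all AD libraries at -0.30, -0.26, -0.37 and -0.37 (AD minus RP 0.14, exact p = 0.0286, adjusted 0.143). AD differed from Null by 0.025 (exact p = 0.657) and RP from Null by -0.12 (exact p = 0.0857). No comparison of this ratio passed after adjustment, and with these group sizes none could have, so that outcome says nothing about the groups. Between irradiated and basal libraries the ratio differed by 0.072 in Null, 0.16 in Het and 0.045 in AD, groups that overlapped in each genotype. Over libraries left out, the Null value ran from 0.011 without the basal library Null-923 to 0.13 without the basal library Null-859, and the Het value was 0.087 without the basal library Het-697 and 0.10 without Het-631. A sum of only the 6 mt- genes that have no annotated copy in the insertion leaves out mt-Co1. With it the difference was -0.21 for RP against Null and 0.17 for irradiated against basal Null.

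**Figure D4:**
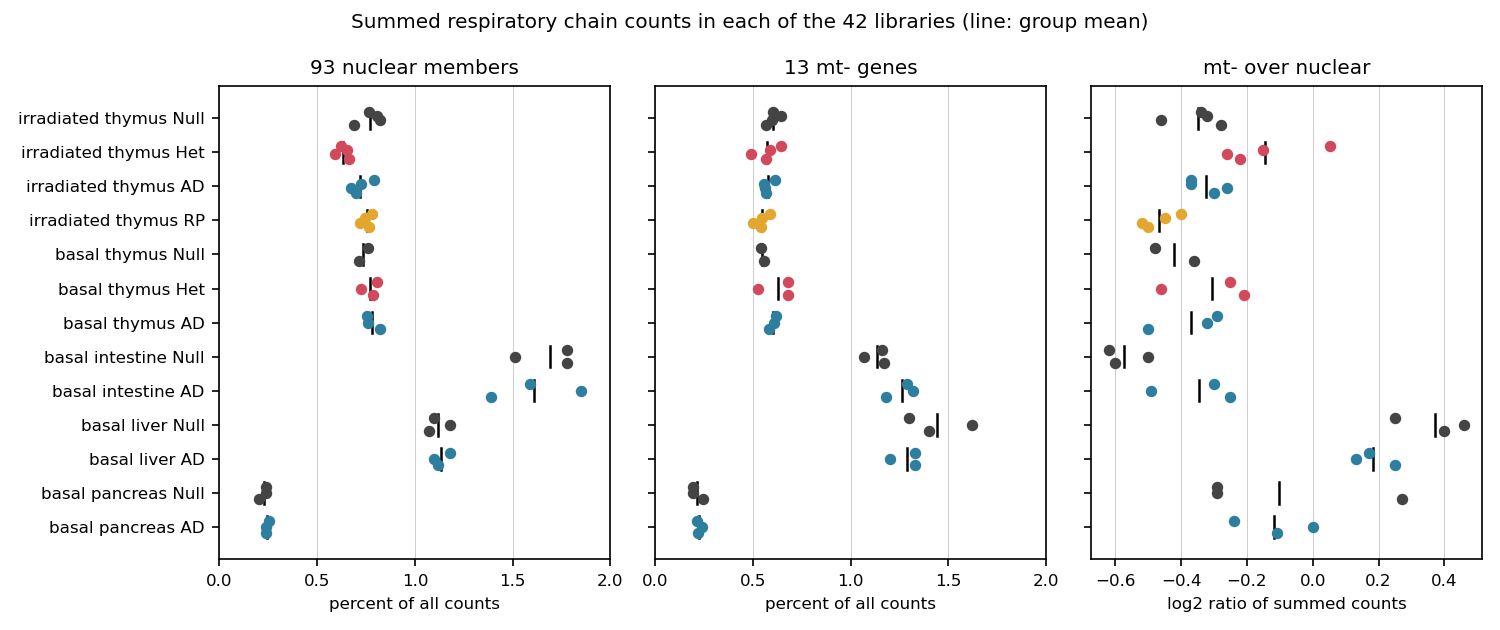
Percent of all counts in the 93 nuclear members (left) and the 13 mt- genes (middle), and the log2 ratio of their sums (right), in each of the 42 libraries in 13 groups (points, libraries; line, group mean). In irradiated thymus the Het points lie lowest for nuclear members, at 0.589 to 0.665%, while the mt- shares overlap, and liver has ratios of 0.13 to 0.46, all above 0.

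In the other organs AD and Null mice were compared without irradiation. edgeR called 0 nuclear members in intestine (of 90), liver (of 87) and pancreas (of 86), where 0.015%, 0.267% and 0.0548% of all genes were called, with 1, 1 and 2 at an unadjusted p below 0.05 and 0 by DESeq2. Nuclear medians were 0.03, -0.021 and 0.10. The mt- genes also gave 0 calls by edgeR, yet in intestine and in liver most of their values lay on 1 side of 0. In intestine 10 of 11 mt- genes were above 0 in AD (median 0.47) and 7 had an unadjusted p below 0.05; DESeq2 called 4, all higher. mt-Nd2, a membrane subunit of complex I, was at 70.3, 57.1 and 61.3 CPM in AD and 37.3, 34.4 and 35.5 in Null intestine, without overlap (0.81 ± 0.11, edgeR adjusted p = 0.0606). mt-Nd5 was at 213, 227 and 204 CPM against 114, 139 and 147 (0.68 ± 0.12, edgeR adjusted p = 0.199). Levels in this and the next paragraphs are on the scale fitted over all 4 organs, and fold changes come from the fit of each organ.

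Liver leaned the opposite way, with 10 of 11 mt- genes below 0 in AD (median -0.29), 3 with an unadjusted p below 0.05 and 1, lower, called by DESeq2. There mt-Nd2 was at 79.6, 80.1 and 88.5 CPM in AD and at 115, 118 and 142 in Null (-0.58 ± 0.11, edgeR adjusted p = 0.0773). In pancreas 7 of 10 were above 0 (median 0.46), 2 had an unadjusted p below 0.05, DESeq2 called 0, and mt-Nd4 stood highest (0.74 ± 0.23, edgeR adjusted p = 0.412). The 3 below 0 there were mt-Co1 (-0.053), which held most mt- counts, mt-Co2 (-0.31) and mt-Co3 (-0.22). The summed log2 ratio of mt- to nuclear counts was -0.34 in AD and -0.57 in Null intestine and 0.18 against 0.37 in liver; neither pair of groups overlapped (exact permutation p = 0.1 in each, the smallest that 3 against 3 allow, adjusted 0.214). In pancreas this ratio was -0.12 in AD and -0.10 in Null, groups that overlapped. Acinar marker sums in intestine, 57575 CPM in AD-702 and 35327 in Null-923 but 470 and 431 in AD-700 and Null-859, did not follow genotype, and their part in the intestine values was not tested. In liver the sum of 8 adipocyte markers was 3605 to 4917 CPM in AD and 1163 to 2852 in Null, without overlap. Lep and Retn were at 0, and only 3 of the 8 reached a mean of 1 CPM in either group. The list includes Pck1, which is not particular to fat, so this sum does not measure fat in liver. Acinar marker sums in liver were 21.9 to 44.4 CPM in 5 libraries and far higher in AD-702, with Ptf1a at 0. The part of either in the liver values was not tested. With the 6 mt- genes that have no annotated copy in the insertion, the intestine difference in log2 ratio was 0.48, against 0.23 with all mt- genes.

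Across organs, levels differed far more than between genotypes. The basal AD and Null libraries of 4 organs (23 libraries, from 6 mice) were fitted together, and each organ was compared with the mean of the other 3. The mouse was not a term of this fit, so its p-values measure the spread among libraries, several of which share a mouse. In thymus 86 of 91 nuclear members were called, 81 lower (median log2 difference -1.13), where 77.6% of all genes were called, 43% higher and 34.5% lower. In liver 87 were, 83 higher (median 1.11), where 76.4% of all genes were called, 31.9% higher and 44.5% lower. Intestine had 70 higher of 74 called (median 0.63; 67.1% of all genes called, 35.7% higher and 31.5% lower), and pancreas 72 lower of 78 called (median -0.66; 67.2% called, 32.4% higher and 34.8% lower). Medians over all genes were 0.14 in thymus, -0.0099 in intestine, -0.35 in liver and -0.10 in pancreas. The order of intestine and liver depends on scaling: the nuclear members made up 1.39 to 1.85% of counts in intestine and 1.07 to 1.18% in liver as plain shares, and hepatocyte markers alone summed to 107737 to 137519 CPM of liver counts. Plain shares were 0.204 to 0.254% in pancreas and 0.713 to 0.82% in basal AD and Null thymus. The order of thymus and pancreas thus also depends on scaling, as does how far thymus lies below the other organs.

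Within an organ the medians of the nuclear roles lay on the same side of 0, that of the assembly factors in intestine being nearest to it, at 0.014. Single members departed from the rest, with 5 called higher in thymus, 4 lower in intestine, 4 lower in liver and 6 higher in pancreas. Complex II and complex III had the widest span, from medians of -1.53 and -1.57 in thymus to 1.51 and 1.46 in liver, with all 4 and all 8 members called in that direction. Core subunits of complex I stood at -1.24 in thymus, 0.74 in intestine, 1.26 in liver and -0.66 in pancreas. Of the 8 assembly factors 2 were higher and 2 lower in intestine, whereas all 8 were higher in liver (median 1.10). Ndufaf6 was at 13.3 to 18.9 CPM in liver, 3.63 to 4.86 in intestine, 2.85 to 3.09 in thymus and 1.07 to 2.28 in pancreas, ranges that do not overlap (liver 2.50 ± 0.10, edgeR adjusted p = 1.01e-18; pancreas -1.74). Ndufaf1, which helps to assemble the membrane arm of complex I, was higher in liver (2.10) and lower in intestine (-0.35). Atp5l, a small subunit of ATP synthase, was higher in thymus (0.28) and lower in liver (-0.45), opposite to the median of its complex. It overlaps the gene model Gm30934, and its thymus call was lost in 19 of 28 alternative fits.

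**Figure D5:**
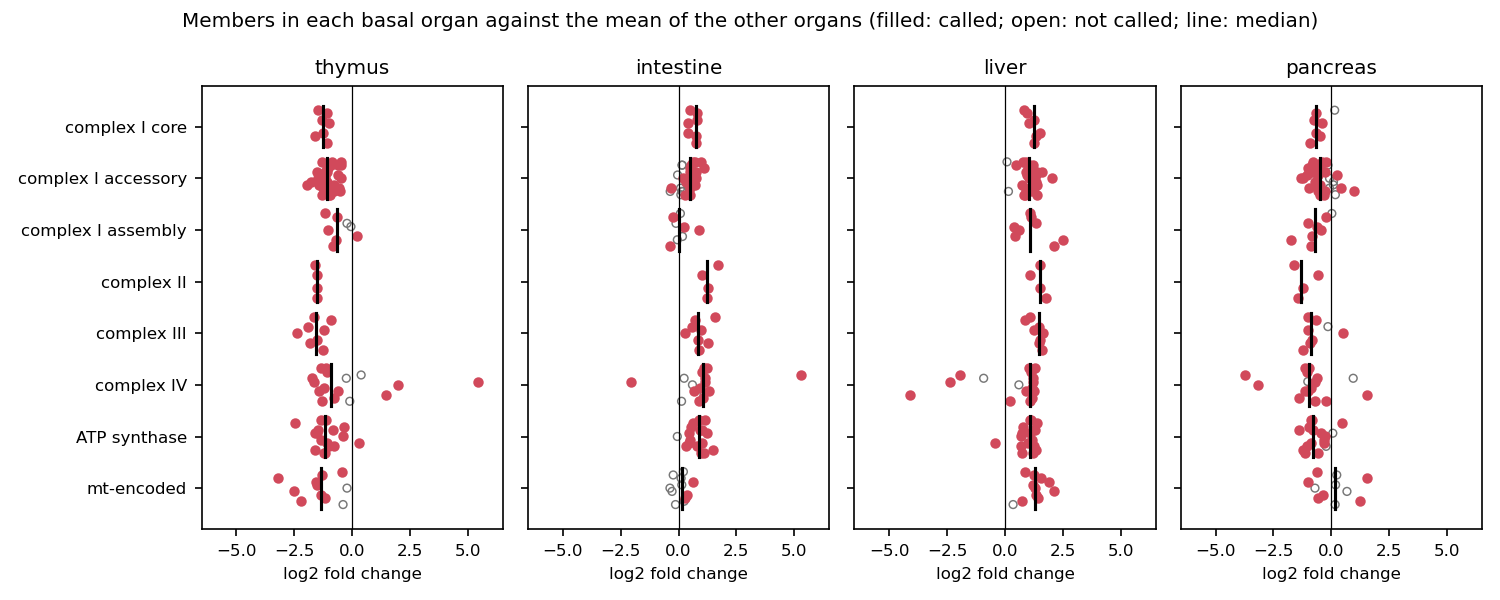
Log2 difference of every tested member between each basal organ and the mean of the other organs, by role (horizontal axis, log2; filled points passed the edgeR threshold, open points did not; line, median). Nuclear roles lie to the left in thymus (medians -1.57 to -0.67) and to the right in liver (1.05 to 1.51), with the complex IV isoforms Cox8b (5.45) and Cox7a1 (5.29) far out in thymus and intestine.

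Isoforms of complex IV marked single organs. Cox7a1 was at 19.4 to 46 CPM in intestine, 1.26 to 4.65 in thymus, 0.361 to 1.26 in liver and 0 to 0.801 in pancreas (intestine 5.29 ± 0.22, edgeR adjusted p = 3.96e-16), which puts intestine apart from the rest. Cox8b was at 1.8 to 6.76 CPM in thymus and at most 0.537 in any other organ, beside the brown adipocyte markers given above. Cox6b2 was at 1.01 to 2.08 CPM in thymus, 0.332 to 1.09 in intestine and 0 to 0.294 in pancreas. In liver 1 library, Null-923, held 4.14 CPM of it and the other 5 held 0 to 0.452. The ordinary isoform Cox6b1 had means of 72.4, 219, 230 and 73.7 CPM in thymus, intestine, liver and pancreas. Cox6a2 and Cox4i2, the muscle form of subunit 6A and the lung form of subunit 4, did not pass 0.624 CPM as a mean in any organ, against 38.9 to 170 for Cox6a1 and 103 to 358 for Cox4i1. Cox7b2 and Cox8c, known from testis, held 6 counts in 5 and 2 counts in 2 of the 42 libraries and were not tested.

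The 3 genes of the c subunit of ATP synthase, whose mature proteins are identical, also differed among organs. Atp5g3 was the highest in intestine (mean 223 CPM) and liver (207), with Atp5g1 at 82.1 and 123 and Atp5g2 at 12.5 and 18.5. In pancreas Atp5g1 (76.1 CPM) stood above Atp5g3 (55.2), and in thymus Atp5g1 (16.6) stood under Atp5g3 (45). Atp5g1 was accordingly the lowest nuclear member of thymus against the other organs (-2.45) and among the few that were higher in pancreas (0.46), with Uqcrq (0.48), a complex III subunit that was at -2.39 in thymus.

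Levels of members of complex IV and ATP synthase were compared per kb of transcript. In complex IV, Cox6b1 was highest throughout (means of 102, 309, 325 and 104 CPM per kb in thymus, intestine, liver and pancreas). In ATP synthase the alpha subunit gene Atp5a1 was highest in thymus, intestine and liver (135, 446 and 475) and the beta subunit gene Atp5b in pancreas (148). For comparison, mt-Co1 stood at 1510, 4595, 9110 and 1997 CPM per kb, above every nuclear member.

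The mt- genes differed among organs in another way than the nuclear genes. In thymus 9 of 11 tested were lower (median -1.32) and in liver 10 were higher (median 1.30), as for the nuclear members, while intestine had 3 higher (median 0.14) and pancreas 2 higher and 4 lower (median 0.16). Over all genes 34.5% were lower in thymus, 31.9% higher in liver, 35.7% higher in intestine, and 32.4% higher and 34.8% lower in pancreas. The intestine and pancreas counts of mt- genes are thus near or below the shares over all genes. mt-Nd5 and mt-Nd4 were higher in pancreas (1.53 and 1.24), where mt-Co1 was lower. Levels of mt-Nd5 were 17.3, 95.4, 193 and 200 CPM per kb in thymus, intestine, liver and pancreas, so that pancreas and liver overlapped, whereas mt-Co1 in pancreas was 1997 against 9110 in liver. The share of mt-Co1 among mt- counts was accordingly 57.4 to 74.7% in pancreas, 78.8 to 82% in basal AD and Null thymus, 81 to 86.1% in intestine and 82.6 to 86.8% in liver. Calls and levels between organs depend on scaling. As plain shares, mt- genes other than mt-Co1 made up 0.0495 to 0.0941% of counts in pancreas and 0.183 to 0.226% in liver. All mt- genes made up 0.195 to 0.246% in pancreas and 0.543 to 0.617% in basal AD and Null thymus.

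Within the same mice, the summed log2 ratio of mt- to nuclear counts was lower in intestine than in liver in 6 of 6 mice (mean difference -0.73) and lower in intestine than in pancreas in 6 of 6 (-0.35; exact sign-flip permutation p = 0.0312 for each, the smallest that 6 mice allow, adjusted 0.0625 over 6 pairs of organs). Thymus lay below liver in 5 of 5 mice (-0.67) and below pancreas in 5 of 5 (-0.32; exact p = 0.0625, adjusted 0.075), and differed from intestine by 0.037 (exact p = 0.688). With these numbers of mice no pair of organs could have fallen below 0.05 after adjustment. Liver lay above pancreas in 6 of 6 mice (0.39), but this direction turned when the mean of log2 values replaced the summed counts (-0.40). It also turned when only the 6 mt- genes without an annotated copy in the insertion were summed (-0.63), a sum that leaves out mt-Co1. The other directions held under both settings, but sizes moved. With those 6 genes the difference was -1.29 for intestine against pancreas, -1.02 for thymus against pancreas, -0.25 for thymus against liver and 0.30 for thymus against intestine, and with the mean of log2 values it was -1.02, -0.68, -0.20 and 0.37.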

How the data were processed

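Total RNA from mouse thymus, intestine, liver and pancreas was sequenced, and the authors deposited 1 table of raw counts per gene with a column for each of the 42 libraries. The submitters' processing notes name STAR 2.6.0b, the GRCm38 build and DESeq2; the counting tool, its treatment of strand and of reads with several matches, and the annotation release are not given in the sources used here. Gene symbols came from GENCODE M21, which matched 49326 of 49585 identifiers and left 259 unmatched. Columns were assigned by genotype and mouse number; the 8 basal thymus columns carry no tissue in their names.

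Counts were tested as deposited with edgeR 4.0.16 (R 4.3.3): filterByExpr, TMM scaling, robust quasi-likelihood tests and Benjamini-Hochberg adjustment over all genes, in separate fits of irradiated thymus, basal thymus, each other organ, all thymus, and the basal organs. CPM values use TMM-scaled library sizes. Ratios of summed counts were compared with exact permutation tests. Organs of 1 mouse share an animal number in the labels; residuals of 33 such pairs correlated with a median of 0.0465 (-0.0111 to 0.183), with 5 pairs above 0.1. Named nuclear members are the 10 with the largest change in each direction among called genes whose mean log2 CPM is 1 or above, and every called mt- gene; up to 4 genes are named for a related list. The code was tested on simulated data, where the liver comparison of 3 against 3 mice gave a larger share of false calls than the threshold implies. Alternatives were RLE scaling, library sizes without mitochondrial genes, no filter, DESeq2 1.42.0, the 2 groups alone, a replicate block and leaving out each library. The members and lists were chosen with earlier results of these data known. Levels of some members are not reported here.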

Additional observations from a re-analysis of the deposited data

Results flagged for a closer look

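In groups of 4 irradiated thymus libraries, 7 of 132 sets of values had 1 library far from the other 3; chance alone sets apart about 1 in 20. The share of mt-Co1 among mt- counts was 75.2% in Het-631 and 80.1 to 80.5% in the other Het libraries. mt-Nd4 was at 136 CPM in Het-631 and 61.2 to 70.8 in the others, and mt-Co1 at 3970 CPM in Het-595 and 4754 to 4818 in the others. In AD, AD-727 stood apart with 0.614% of counts in mt- genes (others 0.559 to 0.568%) and 92.3 CPM of Cox7b (others 75.3 to 76.9). Ndufaf6 was at 6.03 CPM in AD-630 and 4.83 to 5 in the other AD libraries. mt-Nd3 was at 1.58 CPM in RP-654 and 1.06 to 1.09 in the other RP libraries.

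The change from basal to irradiated thymus differed between Het and Null mice for 8 nuclear members by edgeR's test of the difference. Over all genes 3.44% were called, and the number of nuclear members ran from 2 to 17 with 1 library left out. On the log2 scale the difference was 3.12 for Cox6b2 (adjusted p = 4.88e-08), -1.19 for Ndufaf6 (adjusted p = 0.00335), -0.84 for Ndufaf4 (adjusted p = 0.0044), -0.73 for Cox7b (adjusted p = 0.0257), -0.49 for both Ndufa4 (adjusted p = 0.0215) and Atp5j2 (adjusted p = 0.0214), -0.45 for Ndufs6 (adjusted p = 0.039) and -0.42 for Ndufa9 (adjusted p = 0.0466). Between Het and AD it differed for Cox6b2 (3.30, edgeR adjusted p = 3.51e-09) and Ndufaf6 (-0.85, edgeR adjusted p = 0.0277). There 3.98% of all genes were called, and the number of nuclear members ran from 1 to 3 with 1 library left out.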

How the results depend on the processing

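Mouse numbers limit small changes, with 2 mice in basal Null thymus, and depth limits the mt- genes of few counts, such as mt-Atp8 and mt-Nd4l. Of the values recomputed for counts and ratios, 810 kept their direction and side of the threshold (for counts, within 1.5 times), 73 counts differed by over 1.5 times, 15 ratios changed sign and 5 moved past the threshold; of those for named members 2791 kept their call, 192 lost it and none changed sign. The causes were not tested, apart from fewer libraries or more genes in the fit. No scaling changed the median of all genes by more than 0.1.

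With only the 2 groups compared, nuclear calls were 12 in irradiated Het against Null, 3 in AD against Het and 2 in basal thymus AD against Null, and mt- calls were 0 in irradiated Het against Null, 1 in RP against Het and 1 in irradiated against basal Het. With no filter, nuclear calls were 5 in AD against Het, 5 in the Het minus Null response, 1 in basal thymus AD against Null and 1 in liver; mt- calls were 0 in irradiated Het against Null, 1 in RP against Het, 2 in basal thymus Het against Null, 1 in basal AD against Het, 2 in intestine, 2 in liver and 1 in pancreas. DESeq2 gave 18 nuclear calls in the Het minus Null response and 1 in irradiated AD against Null, and mt- calls of 1 in basal thymus Het against Null, 4 in intestine, 1 in liver and 2 in irradiated against basal Het. RLE scaling gave 1 mt- call in intestine and 1 in irradiated against basal Het, and library sizes without mitochondrial genes gave 1 in intestine.

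Leaving out 1 library gave these ranges. Nuclear calls in irradiated thymus were 18 to 44 for Het against Null (18 without Het-595), 3 to 12 for AD against Het (4 without Het-595, Het-603 or AD-727, 3 without AD-630) and 15 to 37 for RP against Het (15 without Het-595, 17 without RP-649, 20 without RP-654, 18 without RP-656). The mt- calls were 0 to 2 for Het against Null (0 without Het-594 or any Null library, 2 without Het-631), 0 to 1 for AD against Het (1 without Het-595) and 1 to 4 for RP against Het (1 without RP-649 or RP-653). Basal thymus Het against Null gave 0 to 2 nuclear and 0 to 1 mt- calls (2 and 1 without Het-697). The mt- calls were 0 to 1 in intestine (1 without AD-700), 0 to 1 in liver (1 without Null-859) and 0 to 2 in pancreas (2 without Null-859). Irradiated against basal Het gave 24 to 47 nuclear (24 and 26 without the basal libraries Het-703 and Het-855) and 0 to 2 mt- calls (1 without Het-595, 2 without Het-631, 1 without basal Het-697), and AD gave 0 to 1 nuclear calls (0 without AD-630, AD-633, AD-726 or any basal library). The Het minus Null response gave 2 to 17 nuclear calls (17 and 13 without the irradiated libraries Null-593 and Het-594, 3 without Het-595, 2, 4, 3 and 5 without the basal libraries Null-859, Null-923, Het-703 and Het-855) and 0 to 1 mt- calls (1 without basal Het-697). The Het minus AD response gave 1 to 3 (1 without Het-595, AD-630 or the basal libraries Het-703, AD-700 or AD-701).

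The log2 ratio of mt- to nuclear counts changed sign in small differences: irradiated AD against Null with the mean of log2 values (-0.0048) and between -0.013 (without Null-604) and 0.047 over libraries left out; pancreas AD against Null with the mean of log2 values (0.14), with mt- genes that have no copy (0.32), or those without mt-Nd6 and mt-Atp8 (0.31), and between -0.10 and 0.18 (0.053 without AD-701, 0.18 without Null-859); basal thymus AD against Null between -0.0091 (without Null-923) and 0.11; basal AD against Het between -0.14 and 0.0029 (without AD-702); irradiated against basal AD between -0.018 (without AD-702) and 0.084; and thymus against intestine between -0.014 (without thymus or intestine of Null-859) and 0.11. Liver against pancreas turned to -0.40 with the mean of log2 values and to -0.63 with mt- genes that have no annotated copy, with or without mt-Nd6 and mt-Atp8. With no replicate block (mice unpaired), the organ ratios passed after adjustment at -0.67 for thymus against liver, -0.28 for thymus against pancreas, -0.73 for intestine against liver, -0.35 for intestine against pancreas and 0.39 for liver against pancreas. With mouse as a replicate block in the organ fit, nuclear calls were 86 in thymus, 73 in intestine, 87 in liver and 77 in pancreas, and the block moved no count of calls by over 1.5 times.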

Other observations

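The mitochondrial ribosomal RNAs are not among the protein-coding genes described above, but their counts in the same libraries can be set beside them. mt-Rnr2, the large ribosomal RNA, made up 2.51, 2.17, 2.49 and 3.23% of counts in irradiated Het thymus, where it lay above all Null (1.59 to 2.05%) and RP libraries (1.59 to 1.94%) and overlapped AD (1.97 to 2.19%). mt-Rnr1, the small one, was at 0.238 to 0.366% in Het and at 0.149 to 0.191% in Null, 0.181 to 0.193% in AD and 0.146 to 0.174% in RP. In basal Het thymus mt-Rnr2 was at 2.34% in Het-703, 1.71% in Het-697 and 2.3% in Het-855, so Het-703 and Het-855 lay within the irradiated Het range. Basal Het mt-Rnr1, at 0.169 to 0.229%, lay below that of irradiated Het. In intestine mt-Rnr2 was at 2.52, 2.38 and 2.95% in AD and at 1.98, 1.82 and 1.93% in Null. In liver the groups overlapped, at 2.47, 2.19 and 2.03% in AD and 2.08, 2.55 and 1.97% in Null. No test was run on these shares.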
